A study of Mus musculus with 9 samples.

Results

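The sterol and fatty acid synthesis genes are a list of 40 mouse genes for cholesterol synthesis, its regulation and transport, and for the making of fatty acids. A member was measured if a row of the array table carried its symbol and no other, and the row of highest mean was used where there were several. This gave 35 of the 40 members among 22180 genes with such a row. Acat2, Idi1, Soat1, Nr1h2 and Scd2 are not analysed here. The list groups genes by what they do. It was chosen with earlier results of these data known, so the counts of called members describe these data only.

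The RNA came from γδ T cells, the T cells whose antigen receptor pairs a γ with a δ chain, of C57BL/6 mice, with 3 arrays for each of 3 subsets. Intraepithelial lymphocytes (IELs) were taken from the intestinal epithelium, and Type-1 and Naive-like cells from peripheral lymph nodes. All the mice are of the one strain, and no treatment or mutation is named in the labels. Nothing used here states the animals' age or sex, how many mice stand behind an array, or the gates between subsets. Arrays of a subset are called biological replicates. The p-values set a difference between subset means against the spread among arrays of a subset, and describe these arrays only. Tissue and subset cannot be told apart in any comparison with IELs, since only the IELs came from the gut. Cell preparation differed along with them and cannot be told apart either. Gut pieces were shaken warm with dithiothreitol and EDTA before a Percoll spin, whereas lymph nodes were mashed and filtered. All levels are log2 values that the authors normalized between arrays, a value after ± is the standard error of a log2 difference unless named otherwise, and each subset has n = 3.

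Cells make cholesterol from acetyl-CoA through mevalonate, farnesyl pyrophosphate, squalene and lanosterol. The transcription factor SREBP2, encoded by Srebf2, drives the genes of this route, and its relative SREBP1, encoded by Srebf1, drives the genes for fatty acids. SCAP carries both from the endoplasmic reticulum to the Golgi, where proteases release the active factor, and the INSIG proteins hold SCAP back when sterols are plentiful. Oxidised sterols activate the liver X receptors (LXRs), which switch on genes that export cholesterol. T cells raise sterol and fatty acid synthesis when they are activated and build new membrane.

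Many genes of sterol synthesis, its brake Insig1 and the desaturase genes Fads1 and Fads2 were higher in IELs than in either lymph node subset, and the cholesterol exporter gene Abca1 was lower. Of the 35 measured members, 11 rose and 1 fell in IELs against Naive-like cells, at an adjusted p under 0.05 in limma's test. In that comparison 3.57% of all 22180 genes were called higher and 1.62% lower, 5.19% in all. Against Type-1 cells 18 members rose and 2 fell in IELs, where 3.73% of all genes were called higher and 1.41% lower, 5.14% in all. The 11 members called higher against Naive-like cells were also called higher against Type-1 cells, comparisons that share the IEL arrays. No member passed the test between Type-1 and Naive-like cells, where 0.212% of all genes were called higher and 0.0721% lower, 0.284% in all. The median difference of the 35 members was 0.85 in IELs against Naive-like cells, beside -0.01 over all genes, and 0.94 in IELs against Type-1 cells, beside -0.03 over all genes. In Type-1 against Naive-like cells it was -0.15, beside 0.03 over all genes. In these bulk samples a change in the share of a cell type and a change in RNA per cell cannot be told apart.

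**Figure D1:**
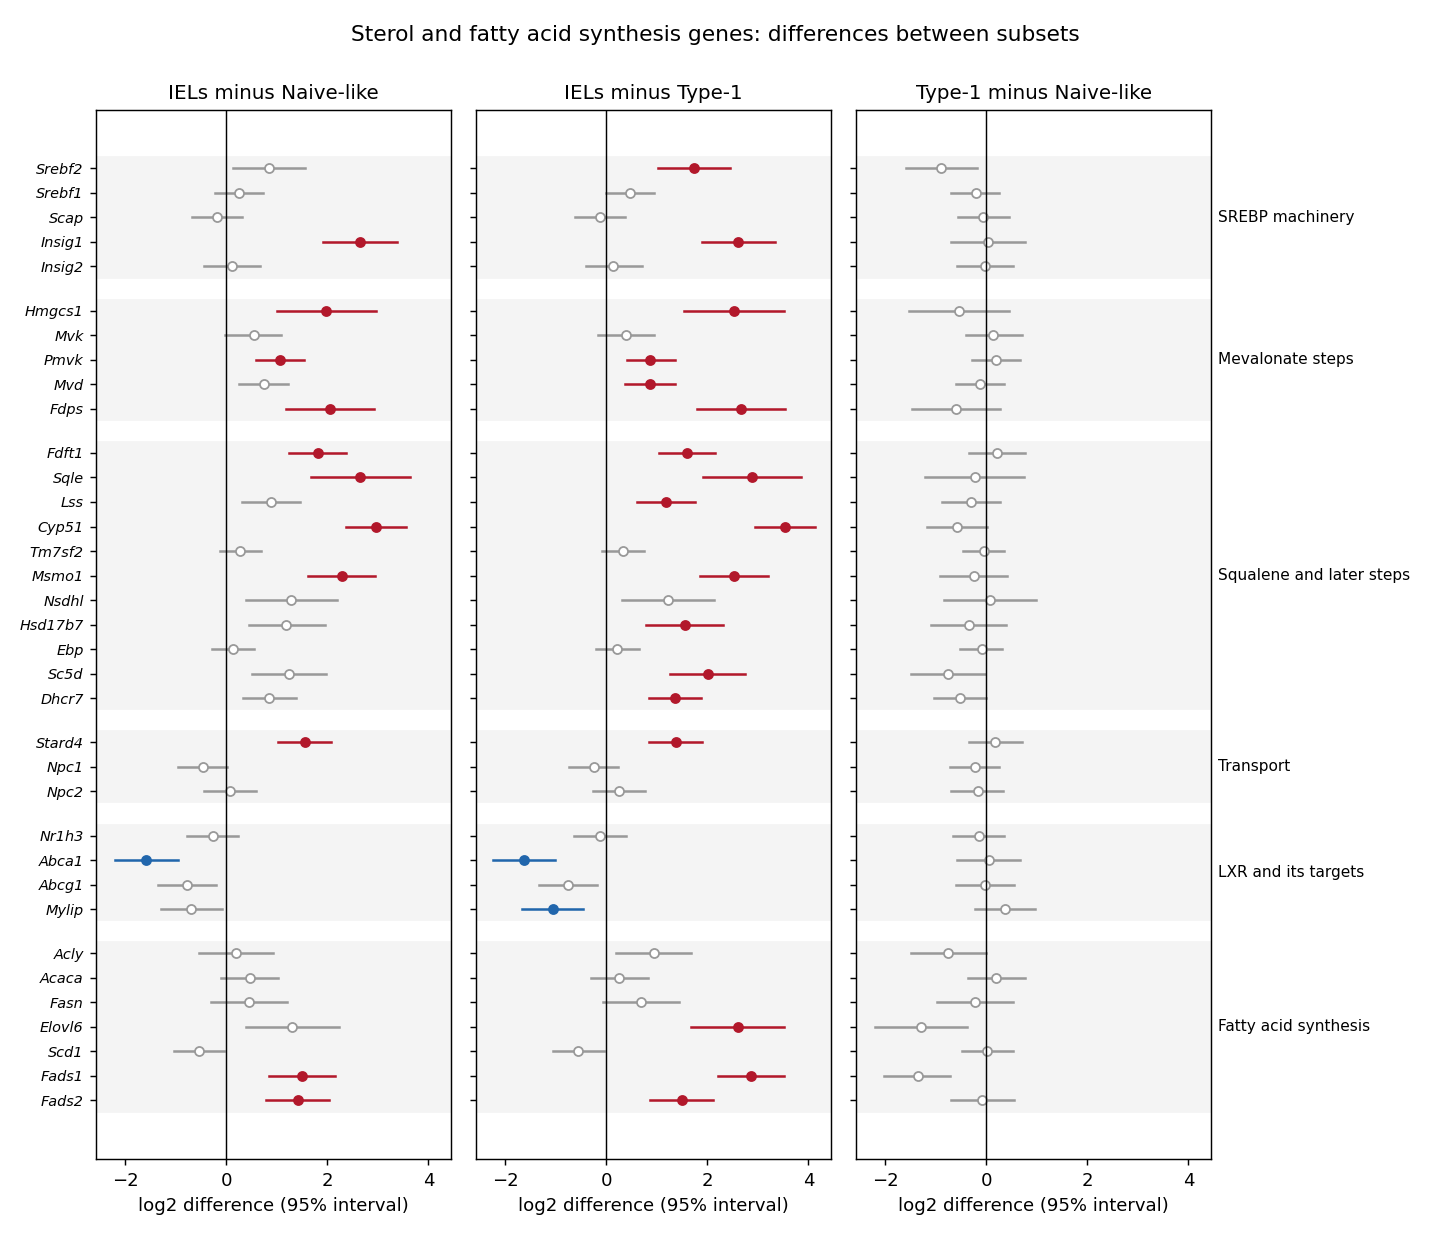
Log2 difference of each of the 35 measured members (point) with its 95% interval from the limma fit (line), in IELs minus Naive-like, IELs minus Type-1 and Type-1 minus Naive-like cells, by role. Filled red points were called higher and filled blue points lower, open grey points did not pass; the right panel has no filled point, and all 16 sterol synthesis enzymes lie right of 0 in the first and second panels.

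Among the genes that control the pathway, Insig1 had the largest difference. It encodes the INSIG protein whose gene is itself switched on by SREBP, so that it closes a feedback loop. Its level was 7.78, 8.30 and 8.98 on the IEL arrays, against 5.41, 6.06 and 5.75 in Type-1 cells and 5.20, 5.65 and 6.26 in Naive-like cells. Every IEL array lay above every lymph node array, and the lymph node subsets overlapped. Insig1 rose by 2.65 ± 0.33 in IELs against Naive-like cells (adjusted p = 0.00035, limma), a 6.27-fold higher level. Against Type-1 cells it rose by 2.61 ± 0.33 (adjusted p = 0.00045, limma).

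Insig2 encodes the other INSIG protein, which holds SCAP in the same way. It measured 6.19, 6.02 and 6.34 in IELs, against 5.69, 6.05 and 6.37 in Type-1 cells and 6.31, 5.56 and 6.32 in Naive-like cells. The 3 subsets overlapped. Its difference in IELs was 0.12 ± 0.25 against Naive-like cells, with a 95% interval of -0.44 to 0.67, and 0.14 ± 0.25 against Type-1 cells. The sign of this small difference changed under 1 alternative processing in the comparison with Naive-like cells and under 2 in that with Type-1 cells. Whether the INSIG genes differ from each other in their response was not tested.

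Srebf2 stood at 7.63, 8.56 and 8.48 in IELs, against 5.93, 6.49 and 7.04 in Type-1 cells and 7.19, 7.17 and 7.77 in Naive-like cells. The IEL arrays were all above the Type-1 arrays but overlapped the Naive-like arrays, and the Type-1 arrays were all below the Naive-like arrays. It rose by 1.74 ± 0.32 in IELs against Type-1 cells (adjusted p = 0.0068, limma). The difference of 0.85 ± 0.32 against Naive-like cells did not pass (adjusted p = 0.22), although it did under 4 of 23 alternatives, among them array weights (1.14, adjusted p = 0.010) and the set implied by the description numbers as a term (adjusted p = 0.046). Srebf1 measured 6.15, 6.62 and 6.48 in IELs, 5.69, 5.87 and 6.29 in Type-1 cells and 6.18, 6.00 and 6.31 in Naive-like cells, with overlap between all subsets. Its largest difference was 0.46 ± 0.22, in IELs against Type-1 cells (adjusted p = 0.32). Scap lay between 6.67 and 7.51 on the 9 arrays and differed by -0.18 ± 0.23 in IELs against Naive-like cells and by -0.12 ± 0.23 against Type-1 cells, differences near 0 whose sign changed under 3 and 2 alternatives.

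The enzymes that turn acetyl-CoA into farnesyl pyrophosphate had 5 measured members, of which 3 rose in IELs against Naive-like cells and 4 against Type-1 cells. Hmgcs1 encodes the cytosolic synthase that makes HMG-CoA, the substrate from which mevalonate is formed. It reached 7.38, 7.28 and 8.10 in IELs, against 4.05, 5.03 and 6.10 in Type-1 cells and 5.06, 5.54 and 6.21 in Naive-like cells. The lowest IEL array was above the highest lymph node array, though replicates within each lymph node subset were more than 1 log2 unit apart. Hmgcs1 rose by 1.98 ± 0.45 in IELs against Naive-like cells (adjusted p = 0.022, limma) and by 2.53 ± 0.45 against Type-1 cells (adjusted p = 0.0052, limma).

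Fdps, the synthase for farnesyl pyrophosphate, the branch point to sterols and to protein prenylation, had 8.53, 7.97 and 7.69 in IELs. It had 6.01, 4.85 and 5.34 in Type-1 cells and 6.27, 5.09 and 6.65 in Naive-like cells, all below the IEL arrays. It rose by 2.06 ± 0.40 in IELs against Naive-like cells (adjusted p = 0.0080, limma) and by 2.66 ± 0.40 against Type-1 cells (adjusted p = 0.0015, limma). The kinase gene Pmvk had 7.01, 7.38 and 7.35 in IELs, against 6.54, 6.25 and 6.34 in Type-1 cells and 6.08, 5.91 and 6.56 in Naive-like cells. The decarboxylase gene Mvd had 6.29, 6.85 and 6.79 in IELs, against 5.71, 5.86 and 5.75 in Type-1 cells and 5.98, 5.56 and 6.15 in Naive-like cells. In both genes the IEL arrays were above all others, by a smaller margin than in Fdps. Pmvk rose by 1.06 ± 0.22 in IELs against Naive-like cells (adjusted p = 0.012, limma) and by 0.87 ± 0.22 against Type-1 cells (adjusted p = 0.039, limma). Mvd rose by 0.87 ± 0.22 in IELs against Type-1 cells (adjusted p = 0.043, limma), while 0.75 ± 0.22 against Naive-like cells did not pass (adjusted p = 0.086), though it did under 5 of 23 alternatives. Mvk, the mevalonate kinase gene, passed in neither comparison, with 0.54 ± 0.26 in IELs against Naive-like cells and 0.39 ± 0.26 against Type-1 cells. Against Naive-like cells Mvk passed under 3 of 23 alternatives.

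From squalene onward 11 genes were measured, and 4 of them rose in IELs against Naive-like cells and 8 against Type-1 cells. All 11 were higher by sign in IELs in both comparisons, with medians of 1.25 and 1.55. Cyp51, which removes a methyl group from lanosterol, had the largest difference of all 35 members. Its values were 7.46, 6.83 and 7.80 in IELs, 3.48, 3.82 and 4.19 in Type-1 cells and 4.25, 4.36 and 4.61 in Naive-like cells. More than 2 log2 units separated the lowest IEL array from the highest lymph node array, and the Type-1 arrays all lay below the Naive-like arrays. Cyp51 rose by 2.96 ± 0.27 in IELs against Naive-like cells (adjusted p = 2.7e-05, limma), 7.77-fold, and by 3.54 ± 0.27 against Type-1 cells (adjusted p = 9.8e-06, limma). The difference of -0.58 ± 0.27 in Type-1 against Naive-like cells did not pass (adjusted p = 0.79).

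Sqle encodes squalene epoxidase, a rate-limiting step of the sterol branch. It had 7.84, 7.13 and 8.06 in IELs, against 5.29, 4.25 and 4.84 in Type-1 cells and 5.40, 3.86 and 5.81 in Naive-like cells. Its Naive-like arrays spread widely, with an SD of 1.03, yet stayed below every IEL array. The rise in IELs was 2.65 ± 0.45 against Naive-like cells (adjusted p = 0.0033, limma) and 2.88 ± 0.45 against Type-1 cells (adjusted p = 0.0021, limma).

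Msmo1, a monooxygenase that strips methyl groups from the sterol ring, measured 8.06, 7.22 and 8.30 in IELs. Its lymph node values were 4.84, 5.38 and 5.81 in Type-1 cells and 5.51, 5.45 and 5.81 in Naive-like cells, which overlap each other and lie below the IEL values. Msmo1 rose by 2.28 ± 0.31 in IELs against Naive-like cells (adjusted p = 0.00059, limma) and by 2.52 ± 0.31 against Type-1 cells (adjusted p = 0.00032, limma). Fdft1, the squalene synthase gene that commits farnesyl pyrophosphate to sterols, had 8.44, 8.55 and 8.99 in IELs, 7.38, 6.56 and 7.25 in Type-1 cells and 6.88, 6.59 and 7.08 in Naive-like cells. The IEL arrays again stood apart, with a rise of 1.81 ± 0.25 against Naive-like cells (adjusted p = 0.00083, limma) and of 1.59 ± 0.25 against Type-1 cells (adjusted p = 0.0024, limma).

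Another 4 enzyme genes of the later steps rose in IELs against Type-1 cells without passing against Naive-like cells. Sc5d, a desaturase, had 8.49, 8.06 and 8.53 in IELs, 5.66, 6.20 and 7.20 in Type-1 cells and 6.76, 7.27 and 7.31 in Naive-like cells. Dhcr7, the reductase of the last step, had 7.31, 7.40 and 7.35 in IELs, 5.72, 5.77 and 6.48 in Type-1 cells and 6.71, 6.18 and 6.63 in Naive-like cells. In both genes every IEL array was above every lymph node array. Hsd17b7, a reductase gene, had 4.99, 5.27 and 6.11 in IELs, 3.21, 4.45 and 4.08 in Type-1 cells and 4.49, 3.96 and 4.34 in Naive-like cells. Lss, the lanosterol synthase gene, had 4.68, 5.35 and 5.54 in IELs, 3.99, 4.05 and 3.96 in Type-1 cells and 4.34, 3.86 and 4.70 in Naive-like cells. For Hsd17b7 the IEL arrays were above all others, and for Lss 1 IEL array was just below the highest Naive-like array. Against Type-1 cells Sc5d rose by 2.01 ± 0.34 (adjusted p = 0.0035, limma), Dhcr7 by 1.36 ± 0.24 (adjusted p = 0.0046, limma), Hsd17b7 by 1.55 ± 0.35 and Lss by 1.19 ± 0.26 (both adjusted p = 0.021, limma). Against Naive-like cells the difference was 1.25 ± 0.34 for Sc5d, 0.85 ± 0.24 for Dhcr7, 1.19 ± 0.35 for Hsd17b7 and 0.89 ± 0.26 for Lss, with adjusted p between 0.056 and 0.088 in limma's test. These calls against Naive-like cells turned on the processing: of 23 alternatives, Sc5d passed under 11, Dhcr7 under 6 and Hsd17b7 and Lss under 4 each. A fit that allowed for the date code, which 1 array of each subset carries in its description, gave an adjusted p of 0.023 for Sc5d and 0.045 for Dhcr7.

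The remaining 3 enzyme genes passed in no comparison. Nsdhl, a sterol dehydrogenase gene, had a difference of 1.28 ± 0.42 in IELs against Naive-like cells and 1.22 ± 0.42 against Type-1 cells. Its IEL arrays were above all others, and it passed under 3 of 23 alternatives against Naive-like cells and 1 against Type-1 cells. The isomerase gene Ebp differed by 0.13 ± 0.19 and 0.22 ± 0.19, with 95% intervals of -0.29 to 0.54 and -0.20 to 0.64, and the reductase gene Tm7sf2 by 0.28 ± 0.19 and 0.33 ± 0.19. Taking the 16 enzymes of both stages, 7 rose in IELs against Naive-like cells and 12 against Type-1 cells, and all 16 differences were above 0 in each, whereas 49.2% and 45.8% of all genes were above 0. In Type-1 against Naive-like cells 4 of the 16 were above 0 and 12 below, and 54.8% of all genes were above 0.

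**Figure D2:**
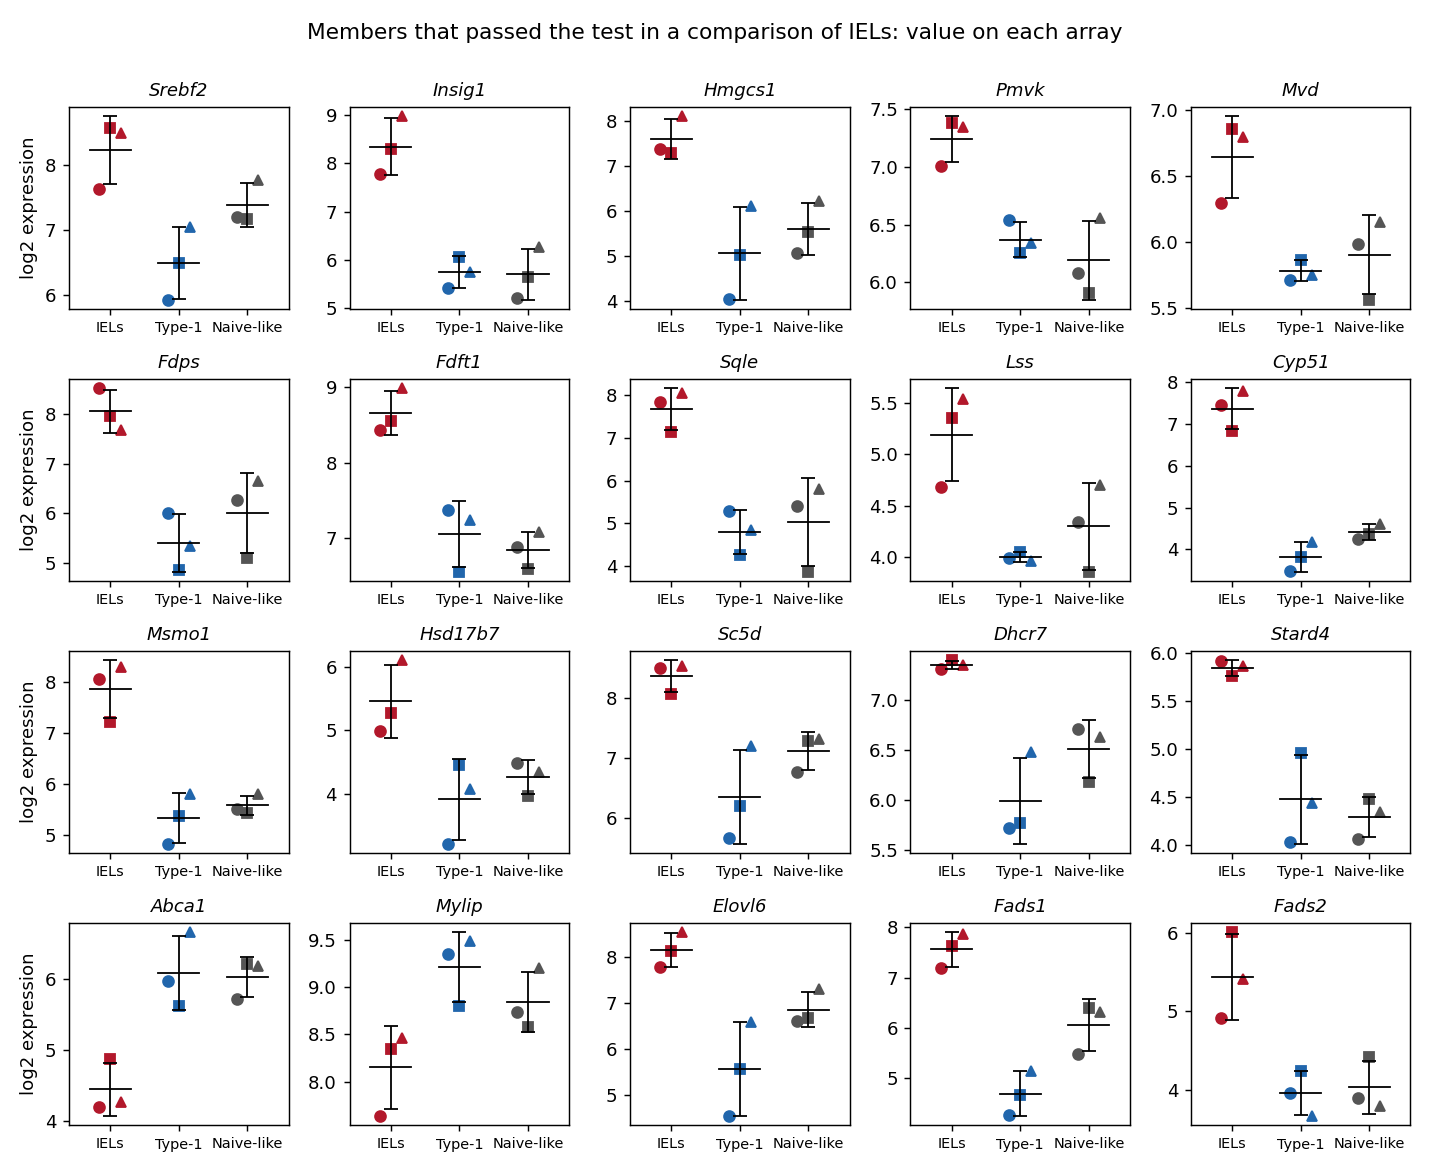
Log2 expression of the 20 members that passed the test in a comparison of IELs, on each array of the IEL, Type-1 and Naive-like subsets (circle, replicate 1; square, replicate 2; triangle, replicate 3), with the mean and SD as bars. The IEL arrays lie above all Type-1 arrays for the 18 members that rose and below them for Abca1 and Mylip; vertical scales differ between genes.

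The promoters of the members were searched for the letters to which the factors of this pathway are known to bind. SREBPs bind the sterol regulatory element, searched as TCACNCCAC and as CACCCCAC, which overlap each other, and act with NF-Y, which binds CCAAT. Both strands of the 250 bases before each start were searched in RefSeq's promoters (GRCm38.p6), which held 27 of the 35 measured members and 13 of the 16 enzymes. CCAAT occurred before 20 of the 27 members (74.1%), against 39.1% of 15379 tested protein-coding genes with a promoter in the table. It occurred before all 13 enzyme genes, before 5 of the 6 members with a promoter that were called higher in both comparisons of IELs, and before 11 of the 13 called higher in at least 1. The exceptions were Fads2, which was called in both, and Elovl6. TCACNCCAC occurred before 1 of the 27 members, Hmgcs1, against 1.22% of those genes. CACCCCAC occurred before Hmgcs1 alone among the 27, against 3.08% of those genes. The GC box GGGCGG, a binding sequence of Sp1, occurred before 22 of the 27 members and 12 of the 13 enzyme genes, against 48.2%. A gene with several starts was counted once if any of its windows matched. CCAAT also stood before Srebf1, Insig2, Mvk, Tm7sf2, Nsdhl, Ebp, Npc2 and Fasn, which passed in no comparison. Of these, Mvk, Nsdhl and Fasn passed under some alternatives. Mylip, which was called lower in IELs against Type-1 cells, had CCAAT too. A pair of AGGTCA with 4 bases between them, the site of LXRs, was in the windows of 0 of these 15379 genes and so of none of the members, and says nothing about them. A match is a string of letters, not a bound site. Its absence holds only for these exact letters in these windows, and other forms of the sterol element were not searched.

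The sequences below are the 250 bases before the start of Hmgcs1, Cyp51, Insig1 and Msmo1. Hmgcs1 alone held the sterol element as searched, among the 6 members with a promoter that were called higher in both comparisons of IELs. Cyp51, Insig1 and Msmo1 were chosen after seeing their values, as the largest differences in IELs against Naive-like cells with a promoter in the table. The sequences are read along the strand of the gene, 5′ to 3′, from RefSeq, GRCm38.p6. Capitals mark the sterol element as searched and CCAAT, or its reverse complement ATTGG. Hmgcs1 lies on the plus strand at chr13:119690101-119690350, Cyp51 on the minus strand at chr5:4104698-4104947, Insig1 on the plus strand at chr5:28071162-28071411 and Msmo1 on the minus strand at chr8:64733579-64733828.
Hmgcs1: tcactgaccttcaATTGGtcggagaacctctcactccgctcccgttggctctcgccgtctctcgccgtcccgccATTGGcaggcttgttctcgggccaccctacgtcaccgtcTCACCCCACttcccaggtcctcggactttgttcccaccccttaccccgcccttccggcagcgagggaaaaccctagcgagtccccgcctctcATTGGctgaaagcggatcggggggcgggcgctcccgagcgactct
Cyp51: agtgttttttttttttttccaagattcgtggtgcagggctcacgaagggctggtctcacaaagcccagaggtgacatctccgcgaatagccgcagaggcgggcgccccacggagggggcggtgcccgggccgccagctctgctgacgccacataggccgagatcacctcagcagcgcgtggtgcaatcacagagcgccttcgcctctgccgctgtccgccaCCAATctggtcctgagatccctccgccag
Insig1: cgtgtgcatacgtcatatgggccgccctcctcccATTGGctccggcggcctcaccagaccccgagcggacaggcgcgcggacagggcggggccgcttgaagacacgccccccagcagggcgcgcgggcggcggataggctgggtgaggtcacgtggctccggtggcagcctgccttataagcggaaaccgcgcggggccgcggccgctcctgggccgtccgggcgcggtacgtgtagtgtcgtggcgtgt
Msmo1: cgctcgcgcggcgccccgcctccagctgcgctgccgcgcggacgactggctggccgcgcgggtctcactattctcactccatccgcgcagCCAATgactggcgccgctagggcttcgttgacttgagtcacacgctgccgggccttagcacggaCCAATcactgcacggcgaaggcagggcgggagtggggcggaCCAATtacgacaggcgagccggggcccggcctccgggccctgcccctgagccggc

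In Hmgcs1 the sterol element ran from 137 to 129 bases before the start, between copies of ATTGG that began 176 and 45 bases before it, with another 237 bases before it. Cyp51 had a CCAAT that began 29 bases before the start and Insig1 an ATTGG 216 bases before it, while Msmo1 had 3 copies of CCAAT, which began 160, 96 and 55 bases before the start.

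Of the genes that move sterols within the cell, Stard4, whose product carries cholesterol between membranes, was the 1 of 3 that changed. It had 5.91, 5.76 and 5.86 in IELs, 4.03, 4.95 and 4.43 in Type-1 cells and 4.06, 4.47 and 4.34 in Naive-like cells. The IEL arrays were close together and above all others. Stard4 rose by 1.55 ± 0.24 in IELs against Naive-like cells (adjusted p = 0.0016, limma) and by 1.37 ± 0.24 against Type-1 cells (adjusted p = 0.0043, limma). Npc1 and Npc2, which export cholesterol from lysosomes, differed in IELs against Naive-like cells by -0.47 ± 0.22 and 0.07 ± 0.24 and passed in no comparison. The sign of the Npc2 difference changed under 4 alternatives, among them a repeated quantile normalization (-0.03).

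Genes of the LXR branch lay on the other side. All 4 measured members were lower by sign in IELs in both comparisons, with medians of -0.73 against Naive-like cells and -0.91 against Type-1 cells. Abca1, which encodes a pump that hands cholesterol to lipoproteins, measured 4.20, 4.88 and 4.27 in IELs, against 5.97, 5.62 and 6.65 in Type-1 cells and 5.72, 6.20 and 6.18 in Naive-like cells. The highest IEL array was below the lowest lymph node array. Abca1 fell by 1.58 ± 0.29 in IELs against Naive-like cells (adjusted p = 0.0051, limma) and by 1.63 ± 0.29 against Type-1 cells (adjusted p = 0.0046, limma).

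Mylip encodes a ubiquitin ligase that marks lipoprotein receptors for breakdown and is an LXR target. Its values were 7.64, 8.35 and 8.46 in IELs, 9.35, 8.80 and 9.49 in Type-1 cells and 8.74, 8.58 and 9.20 in Naive-like cells. It was lower on every IEL array than on any lymph node array and fell by 1.06 ± 0.28 in IELs against Type-1 cells (adjusted p = 0.045, limma), while -0.69 ± 0.28 against Naive-like cells did not pass (adjusted p = 0.25). Abcg1, another sterol exporter gene, had 5.97, 6.07 and 5.82 in IELs, 6.30, 6.67 and 7.16 in Type-1 cells and 6.38, 6.65 and 7.18 in Naive-like cells. Its IEL arrays were below all others too, but the differences of -0.78 ± 0.26 and -0.76 ± 0.26 did not pass (adjusted p = 0.14 against Naive-like and 0.15 against Type-1 cells, limma). Abcg1 passed under 1 of 23 alternatives against Naive-like cells and 2 against Type-1 cells, all of them other normalizations. Nr1h3, the gene of LXRα, lay between 3.89 and 4.84 on the 9 arrays with overlap between all subsets.

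Of the 7 genes of fatty acid synthesis, 4 passed in no comparison and 3 rose. Acly, Acaca and Fasn, which make cytosolic acetyl-CoA, malonyl-CoA and palmitate, passed in no comparison. Their differences in IELs were 0.19 ± 0.34, 0.46 ± 0.26 and 0.45 ± 0.34 against Naive-like cells and 0.94 ± 0.34, 0.26 ± 0.26 and 0.68 ± 0.34 against Type-1 cells. Against Type-1 cells Acly passed under 3 of 23 alternatives and Fasn under 1. Fasn, for example, had 7.23, 8.18 and 8.35 in IELs, 6.47, 7.54 and 7.71 in Type-1 cells and 7.40, 7.51 and 7.50 in Naive-like cells, with overlap throughout. Scd1, a desaturase gene, was at 2.07 to 2.96 on all 9 arrays, low in a table without detection calls. It did not pass in any comparison. Its differences in IELs were -0.54 ± 0.23 against Naive-like cells and -0.55 ± 0.23 against Type-1 cells. The IEL arrays were just below all others, and Scd1 passed under 1 of 23 alternatives against Naive-like cells.

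Among genes that lengthen and desaturate fatty acids, 2 rose in IELs against Naive-like cells and 3 against Type-1 cells. Fads1 and Fads2 encode the desaturases that make polyunsaturated fatty acids. Fads1 had 7.19, 7.63 and 7.87 in IELs, 4.27, 4.68 and 5.15 in Type-1 cells and 5.48, 6.40 and 6.31 in Naive-like cells. The 3 subsets did not overlap, with IELs highest and Type-1 cells lowest. Fads1 rose by 1.50 ± 0.30 in IELs against Naive-like cells (adjusted p = 0.010, limma) and by 2.87 ± 0.30 against Type-1 cells (adjusted p = 0.00010, limma). The difference of -1.36 ± 0.30 in Type-1 against Naive-like cells did not pass (adjusted p = 0.14).

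Fads2 had 4.92, 6.01 and 5.41 in IELs, 3.96, 4.24 and 3.67 in Type-1 cells and 3.89, 4.42 and 3.79 in Naive-like cells. Here the lymph node subsets overlapped and the IEL arrays lay above both, with a rise of 1.41 ± 0.29 against Naive-like cells (adjusted p = 0.011, limma) and of 1.49 ± 0.29 against Type-1 cells (adjusted p = 0.0088, limma). Elovl6, which lengthens palmitate, had 7.78, 8.15 and 8.55 in IELs, 4.54, 5.56 and 6.59 in Type-1 cells and 6.61, 6.67 and 7.31 in Naive-like cells. Like Fads1 it fell into 3 groups of arrays without overlap. It rose by 2.60 ± 0.42 in IELs against Type-1 cells (adjusted p = 0.0027, limma), whereas 1.30 ± 0.42 against Naive-like cells (adjusted p = 0.12) and -1.30 ± 0.42 in Type-1 against Naive-like cells (adjusted p = 0.49) did not pass. The difference against Naive-like cells passed under 8 of 23 alternatives (adjusted p of 0.0099 to 0.033), among them the date code of the arrays as a term (0.025).

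Within the lymph nodes, limma's test called none of the 35 members, and 5 had an unadjusted p under 0.05, all lower in Type-1 cells, or 14.3% beside 6.48% of all genes. These were Fads1, Elovl6, Srebf2, Sc5d and Acly, named here after their values were seen, with the last 3 at -0.89 ± 0.32, -0.76 ± 0.34 and -0.75 ± 0.34. Of the 35 differences 25 were below 0. The Type-1 arrays lay wholly below the Naive-like arrays for 4 members, Srebf2, Cyp51, Elovl6 and Fads1, and wholly above for none, where 5.11% and 6.33% of all genes did so. In IELs against Naive-like cells 18 members were wholly above and 4 wholly below, beside 10.9% and 9.25% of all genes. In IELs against Type-1 cells 20 members were wholly above and 5 wholly below, beside 10% and 9.78% of all genes.

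Other lipid genes were counted in the same way. Of 17 further sterol and isoprenoid genes, 1 rose in IELs against Naive-like cells and 2 against Type-1 cells, and none fell. The genes that rose were 5.88% and 11.8% of this list, beside 3.57% and 3.73% of all genes. Tmem97, a sterol-responsive membrane protein gene, had 6.04, 5.87 and 5.77 in IELs, 5.15, 5.01 and 4.28 in Type-1 cells and 4.56, 4.54 and 5.09 in Naive-like cells. It rose by 1.16 ± 0.26 in IELs against Naive-like cells (adjusted p = 0.018, limma) and by 1.08 ± 0.26 against Type-1 cells (adjusted p = 0.029, limma). Aacs, which makes acetoacetyl-CoA for the pathway, rose by 0.89 ± 0.22 in IELs against Type-1 cells. The medians of these 17 genes were 0.11 and 0.23.

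Of 24 further fatty acid and glycerolipid genes, 1 rose in IELs against Naive-like cells and 3 against Type-1 cells, and none fell. Against Naive-like cells that is 4.17% of the list, near the 3.57% of all genes. Against Type-1 cells it is 12.5%, beside 3.73% of all genes. Dgat1 encodes an enzyme of the final step of triglyceride synthesis, which is active in enterocytes. It had 8.05, 9.21 and 10.16 in IELs, against 6.03, 5.50 and 6.82 in Type-1 cells and 5.90, 5.80 and 6.70 in Naive-like cells. The IEL arrays lay above the others but were more than 2 log2 units apart among themselves. Dgat1 rose by 3.01 ± 0.48 in IELs against Naive-like cells (adjusted p = 0.0021, limma) and by 3.02 ± 0.48 against Type-1 cells (adjusted p = 0.0023, limma). The citrate carrier gene Slc25a1 and Hacd3, a gene of fatty acid elongation, rose by 1.02 ± 0.25 and 1.11 ± 0.25 in IELs against Type-1 cells.

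Other gene lists moved with the same comparisons, and their part in these results was not tested. Their counts stand beside 3.57% of all genes called higher in IELs against Naive-like cells and 3.73% against Type-1 cells. The shares of all genes called lower were 1.62% and 1.41%. All 9 arrays carried T cell transcripts, with Cd3e at 10.06 to 11.97 and Cd3g at 10.69 to 12.32, and 2 of 6 T cell identity genes rose in IELs against Type-1 cells; Trdc, Cd247 and Lck are not analysed here. Of 22 markers of intestinal epithelium, 12 rose in IELs against Naive-like cells and 11 against Type-1 cells, and none fell. Their mean level was 5.48 to 6.16 on the IEL arrays, 4.23 to 4.44 on the Type-1 arrays and 4.23 to 4.40 on the Naive-like arrays. Fabp2 rose by 3.94 ± 0.36 in IELs against Naive-like cells, while the epithelial transcription factor genes Hnf4a, Cdx1 and Cdx2 differed by 0.65 ± 0.32, 0.08 ± 0.21 and -0.01 ± 0.21 and did not pass, with the IEL arrays all above the Naive-like arrays for Hnf4a. Of 17 cell cycle genes, 9 rose in IELs against Naive-like cells and 7 against Type-1 cells, with means of 5.38 to 6.18 in IELs, 4.98 to 5.01 in Type-1 cells and 4.72 to 5.02 in Naive-like cells. Of 16 heat shock and immediate early genes, 12 rose in each of these comparisons, with means of 8.99 to 9.31 in IELs, 7.17 to 8.23 in Type-1 cells and 7.26 to 7.85 in Naive-like cells. None of the 6 B cell markers passed, and of 8 myeloid markers 2 rose in IELs in both comparisons, the integrin genes Itgam and Itgax, of which T cells can express Itgax too.

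The mean of the 16 sterol enzymes was 7.16, 7.14 and 7.46 in IELs, 5.58, 5.49 and 5.86 in Type-1 cells and 5.88, 5.55 and 6.21 in Naive-like cells. Among the IEL arrays the highest epithelial mean was on replicate 2, at 6.16, and the highest sterol mean on replicate 3, where the epithelial mean was the lowest, at 5.48. The highest cell cycle mean, 6.18, was on replicate 3 as well. Replicate 3, the array with the date code, had the highest sterol mean and the lowest epithelial mean within each subset. With 3 arrays these orders are descriptions only, and the part of the date code or of epithelial content in them was not tested.

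**Figure D3:**
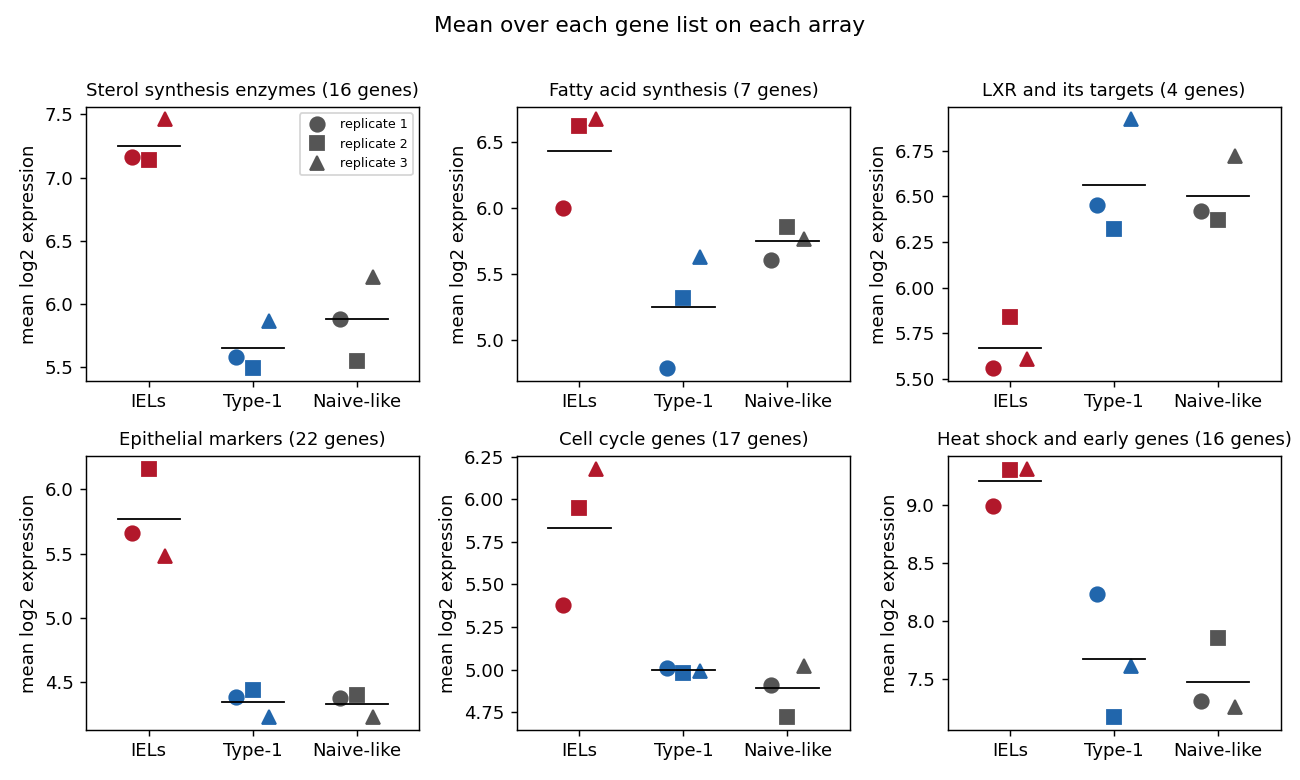
Mean log2 expression of 6 gene lists on each array of the IEL, Type-1 and Naive-like subsets; the line is the mean of 3 arrays. The IEL arrays are above the lymph node arrays for the sterol enzymes, fatty acid genes, epithelial markers, cell cycle genes, and heat shock and early genes, and below them for the LXR genes; vertical scales differ between panels.

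Replicate 3 of each subset carries a date code in its description, which the other arrays lack. All 12 members called against Naive-like cells and all 20 called against Type-1 cells differed in the same direction within the 6 arrays without the code and between the date-coded arrays. Within those 6 arrays 7 members passed against Naive-like cells and 12 against Type-1 cells, with fewer samples in the fit, and among the calls lost in both comparisons were those of Stard4, Abca1, Pmvk and Fads2. With the code as a term the counts were 15 and 20. Cyp51, for instance, differed by 2.84 without the code and by 3.19 with it in IELs against Naive-like cells.

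Some calls were lost when 1 array was left out, in fits with fewer samples. The difference of Hmgcs1 in IELs against Naive-like cells, for example, stayed between 1.71 and 1.95 where its call was lost. In IELs against Naive-like cells the call of Hmgcs1 was lost without IELs replicate 3 (adjusted p = 0.11), Naive-like replicate 1 (0.11) or Naive-like replicate 2 (0.071), and that of Fads1 without IELs replicate 3 (0.056). The call of Fads2 was lost without IELs replicate 2, Naive-like replicate 1 or Naive-like replicate 3 (0.054, 0.055 and 0.058), and that of Pmvk without any 1 of 4 arrays (0.057 to 0.062; IELs replicates 2 and 3, Naive-like replicates 1 and 2). In IELs against Type-1 cells the calls of Pmvk, Mvd and Mylip, all near the threshold, were lost under 11, 11 and 12 of 23 alternatives. For Pmvk and Mvd these included leaving out IELs replicate 2 or 3, any Type-1 replicate or Naive-like replicate 1 (adjusted p of 0.057 to 0.15 for Pmvk and 0.071 to 0.17 for Mvd). Naive-like replicate 1 is not part of that comparison, and without it both differences stayed at 0.87. For Mylip they included leaving out any IELs replicate, Type-1 replicate 1 or 3, or Naive-like replicate 1 or 2 (adjusted p of 0.055 to 0.13). Those of Lss and Hsd17b7 were lost under 5 each, among them leaving out IELs replicate 2, IELs replicate 3 or Type-1 replicate 1 (adjusted p of 0.093, 0.11 and 0.055 for Lss and of 0.055, 0.10 and 0.068 for Hsd17b7), and for Lss also Type-1 replicate 2 (0.053).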

How the data were processed

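RNA of 9 γδ T cell samples was hybridised to Affymetrix whole-transcript arrays. The authors deposited log2 values for 41345 array rows, which the submitters' processing notes attribute to RMA in the oligo package. Versions, filters and the genome build were not given in the sources used here. RMA normalizes arrays to each other and compresses differences of dim genes. Values ran from 0.785 to 13.5 and array medians from 4.25 to 4.43. Of the rows, 23521 had 1 gene symbol in the platform's annotation, 1814 several and 16010 none; 23328 were found in RefSeq (GRCm38.p6) by Entrez identifier. Rows with 1 symbol gave 22180 genes, with the brightest row on average standing for a gene. Npc1 and Scap had 2 rows each, and no row of either passed.

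The two-sided tests came from 1 limma fit (version 3.58.1, R 4.3.3; lmFit on 9 arrays with a mean for each subset, then eBayes). P-values were adjusted by Benjamini-Hochberg across the 22180 genes, and 0.05 was the threshold. The median standard error was 0.24, which the number of arrays limits. The fit was tested on simulated data. The members, lists and their tests were chosen with earlier results of these data known. Every measured member may be named, with values on each array for those called in a comparison and for pairs of related genes, and other lipid genes where they passed. The same-numbered replicates are not stated to be paired. Their deviations from the subset means correlated at -0.01 to 0.16 for replicates 1 and 2. For replicate 3, the arrays with the date code, the correlations were 0.23 to 0.38. Alternatives covered filtering, normalization, spread, weights, rows, samples and blocks. Tables were made with Python 3.11.15 and pandas 2.3.3, plots with matplotlib 3.10.9.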

Additional observations from a re-analysis of the deposited data

How the results depend on the processing

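None of the 12 members called in IELs against Naive-like cells, nor of the 20 called against Type-1 cells, changed sign under any of 23 alternatives, and Cyp51, Fdft1, Insig1, Msmo1 and Sqle kept their calls under every alternative in both comparisons. Where arrays were left out, the sign of a called member could not change, since its IEL arrays lay beyond all arrays of the other subset. In IELs against Naive-like cells 12 members passed. The count was 22 with array weights, 19 with the set implied by the description numbers as a term and 7 with only the arrays without the date code, a fit with fewer samples. It was 9 to 16 when each array was left out in turn. In IELs against Type-1 cells it was 20, with 12 in the arrays without the date code and 15 to 20 when each array was left out. In Type-1 against Naive-like cells it was 0, also whenever an array was left out, and 1, Fads1 (adjusted p = 0.014, limma), with the replicate number as a block. That block gave 15 and 21 members in the comparisons of IELs; the numbers are not stated to pair samples, and the cause of these changes was not tested. Without IELs replicate 1 and Type-1 replicate 3, a choice made after seeing the data as they had the lowest weight in their subsets, the counts were 17, 0 and 20. Members that were not called changed sign under an alternative 9 times in IELs against Naive-like cells, 53 times in Type-1 against Naive-like cells and 5 times in IELs against Type-1 cells. The table has no detection calls, so low values such as those of Scd1 have no stated background.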
